A study of Caenorhabditis elegans with 12 samples.

Results

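The C-type lectin genes of *C. elegans* encode proteins with a C-type lectin-like domain, a compact fold stabilised by disulphide bonds that in some members binds sugars with the help of calcium. The family is greatly expanded in the nematode, many members carry a signal for secretion, and several are made in the intestine and are induced by pathogenic bacteria or fungi. Which members respond depends on the pathogen, and some of them, such as *clec-67* and *clec-85*, are known targets of the PMK-1 p38 MAP kinase pathway of innate immunity. Members were all genes whose symbol is *clec-* followed by a number and whose probe set carries exactly 1 symbol, with the brightest probe set taken for each gene. This gave 247 genes on 248 probe sets, of 25478 genes tested by name, with 233 protein-coding members and 14 pseudogenes. A further 6 probe sets were left out because they share a second symbol. The WBcel235 reference gene table lists 264 numbered *clec* genes, of which 17 were not analysed here.

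RNA of whole L3 larvae of the wild-type strain N2, kept at 20 °C, was hybridised to 12 Affymetrix *C. elegans* Gene ST arrays. Control larvae were fed bacteria with the empty vector pL4440, and the other groups were fed bacteria that express double-stranded RNA of *nuo-5*, the gene of the complex I subunit that corresponds to human NDUFS1. Mild *nuo-5* RNAi larvae were of the parental generation and strong *nuo-5* RNAi larvae of the filial generation, in which growth arrests as L2/L3 larvae. Strength of RNAi and generation cannot be told apart between these groups, and the labels do not say to which generation control larvae belonged. The labels name either lutein or DMSO as a supplement of the plates, and lutein arrays were not analysed here. Each group holds 4 arrays, numbered I, III, IV and V, and the p values below measure the spread between them. Because whole larvae were used, fewer cells of a type and less RNA per cell cannot be told apart.

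The labels were checked on *nuo-5* itself, whose log2 values lay between 8.29 and 8.56 on the control arrays, 7.15 and 7.66 on the mild arrays and 6.89 and 7.22 on the strong arrays. Arrays of one group correlated at 0.96 or more. Strong array III stood apart from the other strong arrays, and values without it are given beside the results it moved most. Such values leave out an array already seen to differ, so they are a description and not separate support. Of 18 measured genes that mark oocytes, eggshell or the adult stage, 10 were called higher in strong RNAi. Their summed level was between 9.47 and 9.97 on the log2 scale in control and between 9.41 and 9.91 in mild RNAi. In strong RNAi it was 12.73, 13.17 and 12.32 on replicates I, IV and V and 9.23 on strong array III. Without strong array III, 16 of these 18 genes were called higher. Of 8 epidermal markers 3 were lower in strong RNAi, of 6 body muscle markers 3 and of 5 germ line markers 2, and none of these was higher, with medians of -1.27, -0.62 and -0.74. Without strong array III these counts were 4, 6 and 1. Of 11 intestinal markers 3 were higher and none lower, among them the GATA factor gene *elt-2* with a log2 fold change of 1.57, and without strong array III only *elt-2* was called. Of 6 neuronal markers 1 was higher, of 5 pharyngeal markers 1 was higher and 1 lower, and of 47 sperm genes 1 was higher. Over all probe sets, 8.04% were higher and 5.62% lower. The part of these markers in the results below was not tested.

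Most C-type lectin genes were dim in these larvae. The median control level of the 247 members was 2.96 on the log2 scale, against 3.44 over all 29317 probe sets. Of the members, 133 (53.8%) had a control mean below 3.01, the 40th percentile of all values on the arrays, against 39.9% of all probe sets. A value in this range is close to the lowest that the arrays give, and it cannot show whether a gene is expressed. All 14 pseudogenes had means over the 12 arrays between 2.13 and 3.30, and none of them was called. At the other end a small set of genes was bright. The highest control means were those of *clec-63* (11.02 ± 0.36, SD, n = 4), *clec-150* (10.11 ± 0.46), *clec-50* (9.68 ± 0.49), *clec-84* (9.25 ± 0.16) and *clec-186* (9.24 ± 0.21), followed by *clec-265*, *clec-65*, *clec-1*, *clec-180* and *clec-90*. Neighbours among the 5 highest overlapped between control arrays, so that the replicate spread does not settle their order. Brightness also depends on the probes of each gene, so this order is one of array signal and not of transcript number.

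With strong *nuo-5* RNAi a limited set of C-type lectin genes was higher, and most of the family was not called. Between strong RNAi and control, 22 of 247 members were higher and 6 were lower, with 219 not called. The largest rises were 3.51 for *clec-45*, 3.25 for *clec-42*, 3.14 for *clec-17* and 2.96 for *clec-76* on the log2 scale, that is 11.4-fold, 9.54-fold, 8.82-fold and 7.76-fold. The falls did not exceed 0.78 on this scale and were all in dim genes. The share called higher, 8.91%, was close to the 8.04% of all probe sets called higher, and the share called lower, 2.43%, was below the 5.62% of all probe sets called lower. The median log2 fold change of the members was -0.08, against -0.05 over all probe sets. All 4 strong arrays lay above all 4 control arrays for 23 members (9.31%, against 9.39% of all probe sets) and below them for 16 (6.48%, against 8.51%). The shares of the family were thus close to or below those of the array as a whole.

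**Figure D1:**
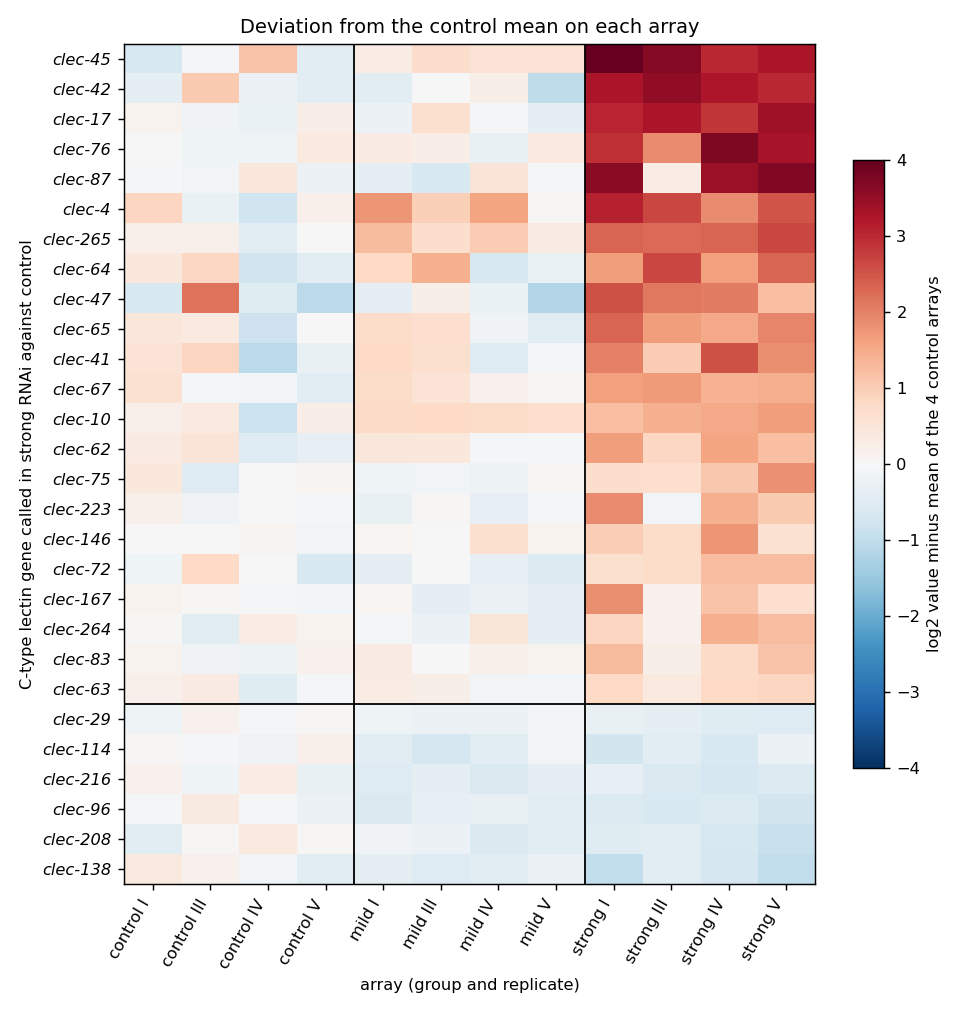
Each row is one of the 28 C-type lectin genes called between strong RNAi and control, each column one array, and the colour is the log2 value minus the mean of the 4 control arrays, blue below and red above it. The 22 genes above the line are red on most strong arrays, with *clec-87*, *clec-83*, *clec-167*, *clec-223* and *clec-264* between -0.12 and 0.29 from the control mean on strong array III, and the 6 genes below it are pale blue on mild and strong arrays.

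The calls differed with brightness. Among the 140 members whose mean over all arrays was below 3.01, 1 (0.714%) was higher and 6 (4.29%) were lower. Of all probe sets in that range 0.847% were higher and 0.779% lower, so the members' share called lower was above it here. Of the 68 members between 3.01 and 5, 7 (10.3%) were higher, against 11% of all probe sets in that range. Of the 20 members between 5 and 7, 6 (30%) were higher, against 14.6% of all probe sets. Of the 19 members above 7, 8 (42.1%) were higher, against 14.3% of all. No member above 3.01 was called lower, whereas 8.88% of all probe sets between 5 and 7 and 19.4% of those above 7 were. The mean includes the strong arrays, which moves genes that rose to a brighter range, and these shares are given as a description. Among the 10 members with the highest control means, which leave the strong arrays out, 3 were higher (*clec-63*, *clec-265* and *clec-65*), none was lower and 7 were not called.

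**Figure D2:**
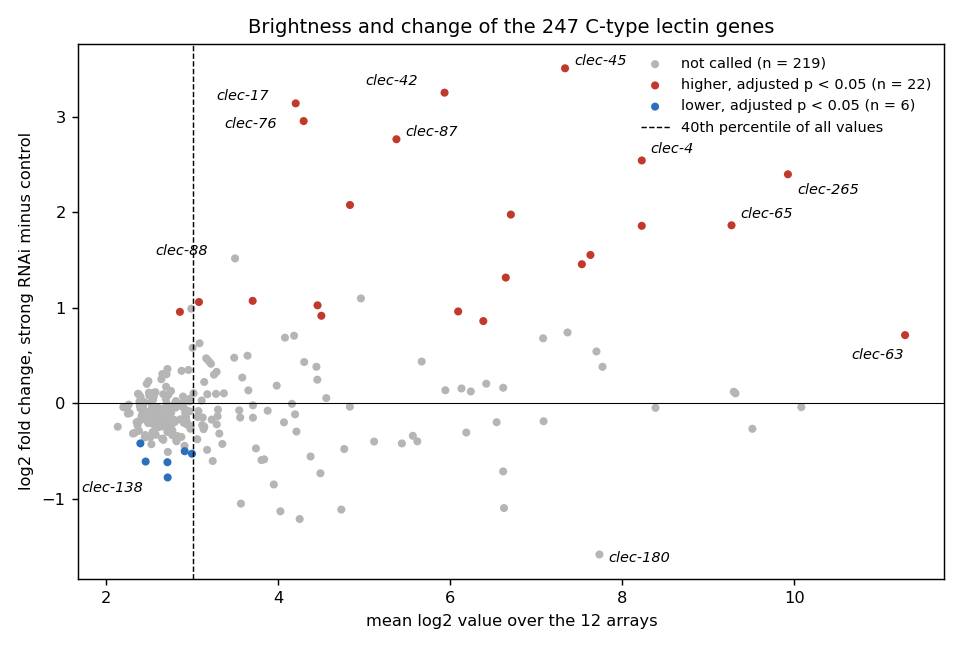
Each point is one of the 247 C-type lectin genes, with its mean log2 value over the 12 arrays on the horizontal axis and its log2 fold change between strong RNAi and control on the vertical axis. Genes called higher (red, 22) spread over the brighter range, while the 6 called lower (blue) all lie left of the 40th percentile of all values (dashed line).

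*clec-45* had the largest rise. Its log2 values were 5.34, 5.93, 7.13 and 5.54 on control arrays I, III, IV and V, 6.29, 6.70, 6.52 and 6.56 on the mild arrays, and 10.08, 9.65, 9.01 and 9.25 on the strong arrays. Every strong array lay above every control and mild array, with a log2 fold change of 3.51 (SE 0.34, adjusted p = 0.0001246). *clec-42* was at 4.55, 5.99, 4.72 and 4.52 in control, 4.54, 4.94, 5.18 and 3.94 in mild and 8.20, 8.48, 8.17 and 7.95 in strong RNAi. The strong arrays were the most alike of the 3 groups, and the rise was 3.25 (SE 0.33, adjusted p = 0.0001745).

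*clec-17* was near the dim end of the arrays in control, at 3.28, 3.03, 2.89 and 3.42, and likewise in mild RNAi, at 2.91, 3.79, 3.11 and 2.81. It reached 6.21, 6.43, 6.01 and 6.54 on the strong arrays, a rise of 3.14 (SE 0.21), and its adjusted p of 1.809e-05 was the smallest of all members. *clec-76* changed in the same range, from 3.22, 3.08, 3.07 and 3.64 in control and 3.57, 3.51, 2.97 and 3.63 in mild to 6.16, 5.14, 6.97 and 6.56 in strong RNAi (2.96, SE 0.32, adjusted p = 0.0002356). Since the control values of both genes lie close to the lowest that the arrays give, these differences may understate the change of the transcript.

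*clec-265* and *clec-4* were already bright in control and were higher still in strong RNAi. *clec-265* was at 9.04, 9.06, 8.42 and 8.88 in control, 10.12, 9.55, 9.87 and 9.18 in mild and 11.16, 11.12, 11.17 and 11.53 in strong RNAi. The groups did not overlap at all, with mild arrays between the other groups, and the rise between strong RNAi and control was 2.40 (SE 0.21, adjusted p = 6.237e-05). *clec-4* was at 7.87, 6.75, 6.22 and 7.22 in control, 8.78, 7.97, 8.60 and 7.07 in mild and 10.10, 9.68, 8.91 and 9.54 in strong RNAi. Here the mild arrays overlapped the control arrays, and only the strong arrays lay apart (2.54, SE 0.41, adjusted p = 0.002234).

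**Figure D3:**
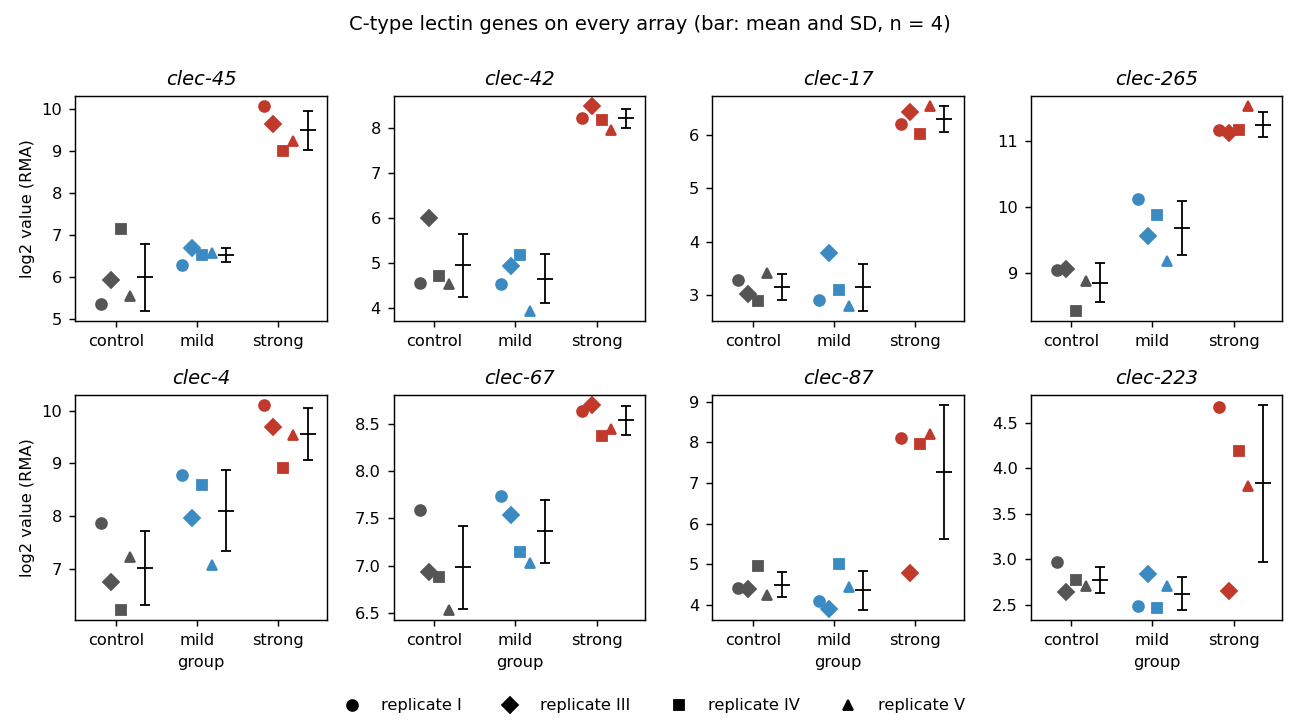
Log2 values of 8 C-type lectin genes on each of the 12 arrays, by group, with the replicate as the symbol and the mean and SD of the 4 arrays as the bar. *clec-45*, *clec-42*, *clec-17* and *clec-67* are high on all 4 strong arrays, *clec-265* and *clec-4* also have mild means above control, and *clec-87* and *clec-223* stay at the control level on strong array III.

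*clec-41* and *clec-10* rose from bright control levels that were lowest on control array IV. *clec-41* was at 8.07, 8.38, 6.46 and 7.23 in control, 8.34, 8.16, 7.01 and 7.48 in mild and 9.54, 8.56, 10.08 and 9.40 in strong RNAi (1.86, SE 0.44, adjusted p = 0.01459). *clec-10* was at 7.0, 7.19, 5.94 and 7.06 in control, 7.58, 7.58, 7.52 and 7.46 in mild and 8.01, 8.23, 8.31 and 8.47 in strong RNAi (1.46, SE 0.23, adjusted p = 0.001967). Its 3 groups did not overlap. *clec-47* gave a less stable result: its control values were 5.56, 8.34, 5.70 and 5.12 and its strong values 8.72, 8.30, 8.23 and 7.37, so that control array III overlapped the strong arrays. Its rise of 1.98 (SE 0.59) had an adjusted p of 0.04201, which was 0.06719 without strong array III.

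Of the smaller rises, *clec-146* was at 4.04, 4.06, 4.14 and 3.92 in control, 4.12, 4.05, 4.67 and 4.2 in mild and 5.03, 4.79, 5.8 and 4.65 in strong RNAi (1.03, SE 0.22, adjusted p = 0.01). The strong arrays were above every control array, and mild array IV reached the lowest of them. *clec-264* was at 4.25, 3.74, 4.49 and 4.35 in control and 5.07, 4.37, 5.62 and 5.44 in strong RNAi, with overlap on strong array III (0.92, SE 0.27, adjusted p = 0.04342, and 1.17 with an adjusted p of 0.005554 without that array). *clec-167* was the only member called higher whose mean over the 12 arrays was below 3.01. It went from 2.74, 2.64, 2.54 and 2.50 in control to 4.47, 2.77, 3.74 and 3.28 in strong RNAi (0.96, SE 0.28, adjusted p = 0.03869, and 1.22 with an adjusted p of 0.004153 without strong array III). In a fit of only the 8 arrays compared, 16 of the 22 members called higher and 2 of the 6 called lower were still called. *clec-47*, *clec-63*, *clec-72*, *clec-167*, *clec-223* and *clec-264* were not, nor were *clec-29*, *clec-114*, *clec-208* and *clec-216*.

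Many C-type lectin genes lie next to each other in the genome. With at most 3 other genes allowed between neighbours in the WBcel235 gene table, 167 members fell into 49 groups of 2 or more and 80 stood alone. At least 1 member was called between strong RNAi and control in 16 of these groups. Only the groups that hold *clec-62* and *clec-67* had more than 1 called member, and in both of them all calls were higher. The others had a single call each and could not show calls in both directions. Probes of near-identical neighbours can take up each other's RNA, and the probe sequences were not examined here.

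The group *clec-62*, *clec-63*, *clec-64*, *clec-65* and *clec-66* had 4 of its 5 members called higher. *clec-65* was at 9.05, 8.96, 7.75 and 8.58 in control, 9.31, 9.25, 8.43 and 8.13 in mild and 10.90, 10.27, 10.10 and 10.53 in strong RNAi, a rise of 1.86 (SE 0.33, adjusted p = 0.003433). *clec-64*, the dimmest of the group, was at 4.44, 4.85, 3.24 and 3.58 in control and 5.69, 6.69, 5.67 and 6.37 in strong RNAi (2.08, SE 0.46, adjusted p = 0.01138). *clec-62* was at 6.47, 6.67, 5.63 and 5.81 in control and 7.8, 6.96, 7.73 and 7.35 in strong RNAi (1.32, SE 0.26, adjusted p = 0.005809). In these genes every strong array lay above every control and mild array. *clec-63*, the brightest lectin gene of all, had the smallest change of the 22 called higher, from 11.24, 11.34, 10.53 and 10.98 in control to 11.83, 11.42, 11.82 and 11.89 in strong RNAi (0.71, SE 0.19, adjusted p = 0.02409). *clec-66* was at 7.19, 7.0, 6.56 and 7.23 in control and 8.69, 7.47, 7.26 and 7.52 in strong RNAi and was not called (0.74, SE 0.30, adjusted p = 0.121).

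The largest group, of 14 neighbours, runs from *clec-67* to *clec-78* and holds *clec-174*. Of these, 4 were higher (*clec-67*, *clec-72*, *clec-75* and *clec-76*) and 10 were not called. *clec-67*, which depends on PMK-1 for its expression and is widely used as a readout of that pathway, was at 7.59, 6.94, 6.89 and 6.53 in control, 7.73, 7.54, 7.15 and 7.03 in mild and 8.64, 8.70, 8.37 and 8.45 in strong RNAi. It rose by 1.55 (SE 0.22, adjusted p = 0.001036), with no overlap between strong arrays and the others. *clec-72* rose by 0.96 (SE 0.26, adjusted p = 0.02814), although control array III, at 6.69, lay above strong arrays I and III, at 6.53 and 6.62. *clec-75* went from 3.80, 2.86, 3.39 and 3.48 in control to 4.08, 4.07, 4.44 and 5.22 in strong RNAi (1.07, SE 0.25, adjusted p = 0.01429). *clec-70* and *clec-71*, which lie between these genes and are known to be induced by Gram-positive pathogens, stayed between 2.23 and 3.26 on all 12 arrays and were not called.

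**Figure D4:**
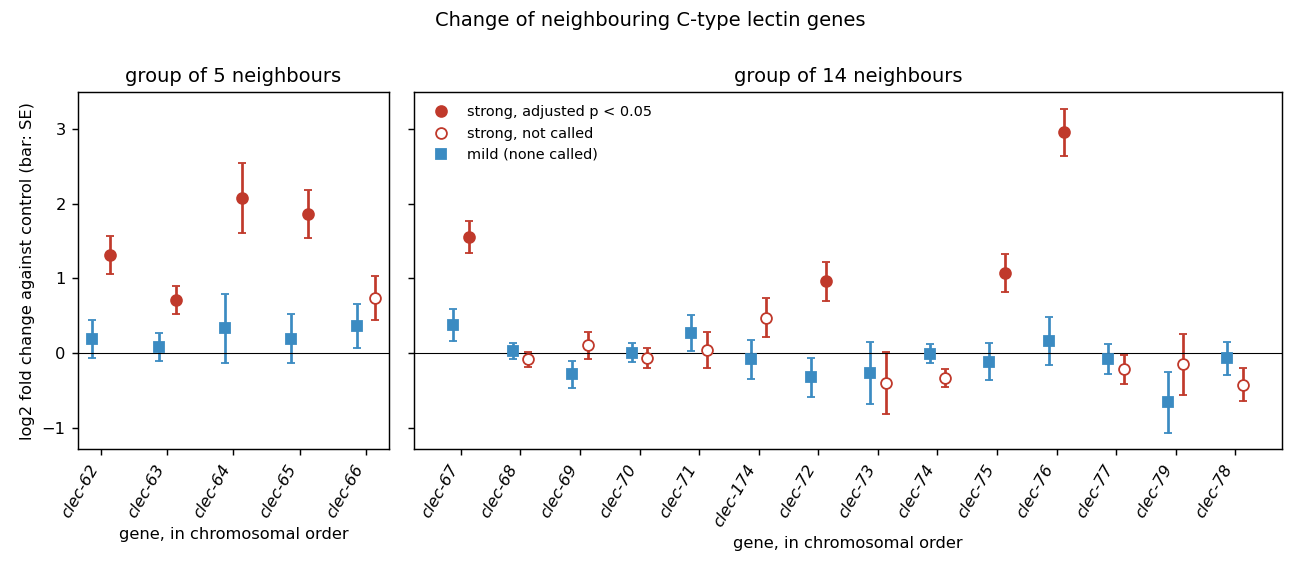
Log2 fold changes against control, with their standard errors, of neighbouring C-type lectin genes in chromosomal order, for mild (squares) and strong RNAi (circles, filled where the adjusted p was under 0.05). In the group of 5, 4 genes are called and *clec-66* is not. In the group of 14, *clec-67*, *clec-72* and the adjacent *clec-75* and *clec-76* are called and the other 10 are not.

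Other neighbours of strongly changed genes did not share the change. *clec-45* lies beside the pseudogene *clec-46*, which was not called, with group means of 2.36 in control and 2.59 in strong RNAi. *clec-42* lies beside *clec-245* and *clec-246*, whose log2 fold changes were -0.12 and 0.15 and were not called. *clec-41* lies beside *clec-225*, whose change was -0.71 (adjusted p = 0.1253). With arrays of the same number blocked together in the fit, *clec-225* was called lower (limma, adjusted p = 0.03678). *clec-4* lies beside the dim *clec-8*, at 0.10. In the group of *clec-80*, *clec-82*, *clec-83*, *clec-84* and *clec-85*, *clec-83* was higher by 0.86 (SE 0.20, adjusted p = 0.01333). *clec-85*, another gene regulated through PMK-1, was at 7.05, 7.32, 6.06 and 6.62 in control and 7.87, 7.51, 7.39 and 7.0 in strong RNAi, so that the groups overlapped, and it was not called (0.68, SE 0.27, adjusted p = 0.1257). In the blocked fit *clec-85* was called higher (limma, adjusted p = 0.02961). The bright *clec-84* changed by 0.10, with a 95% interval of -0.39 to 0.59. In the group of 13 genes with numbers between *clec-22* and *clec-40* and the group of 8 genes from *clec-127* to *clec-134*, no member was called and no control mean exceeded 3.35.

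Some members with known roles in defence were not called. *clec-60*, which is induced by *Staphylococcus aureus*, was at 2.85, 2.81, 3.45 and 3.5 in control and 3.63, 3.12, 3.83 and 3.24 in strong RNAi (0.30, adjusted p = 0.3663). *clec-52*, which is also induced by this bacterium, was at 4.00, 5.59, 4.52 and 4.21 in control and 5.36, 3.87, 5.73 and 7.75 in strong RNAi, a wide spread within the group (1.10, SE 0.65, adjusted p = 0.3104, and 1.70 with an adjusted p of 0.0589 without strong array III). *clec-39* and *clec-49*, whose products bind *Serratia marcescens*, changed by -0.15 and -0.20 with adjusted p of 0.5163 and 0.7044. The control mean of *clec-39* was below 3.01, where expression cannot be judged, while that of *clec-49* was 6.57. *clec-38*, which has a role in axon growth, was between 2.34 and 2.85 on all 12 arrays. For *clec-150* and *clec-50*, among the brightest of the family, the 95% intervals of the change were -0.50 to 0.42 and -0.95 to 0.41.

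The 6 members called lower in strong RNAi were all dim. *clec-138* was at 3.5, 3.28, 3.0 and 2.64 in control, 2.72, 2.59, 2.66 and 2.86 in mild and 2.13, 2.65, 2.42 and 2.11 in strong RNAi, with overlap on control array V (-0.78, SE 0.18, adjusted p = 0.01504). *clec-96* was at 2.75, 3.16, 2.72 and 2.56 in control, 2.21, 2.46, 2.50 and 2.38 in mild and 2.26, 2.18, 2.26 and 2.06 in strong RNAi (-0.61, SE 0.14, adjusted p = 0.01143). Here the strong arrays were below the control arrays, and so were the mild arrays. The others were *clec-208* (-0.62), *clec-216* (-0.53), *clec-114* (-0.50) and *clec-29* (-0.42). For all 6 the mild mean lay between the other means, with a median change of -0.41 in mild and -0.57 in strong RNAi. Both changes are taken against the same control arrays, and the 6 were picked for a fall against them. The mild values are therefore not separate support for a fall. At these levels the values lie within the dimmest part of the array, and whether the transcripts were present in control was not established.

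The largest fall in a bright member did not pass the threshold. *clec-180* was at 7.90, 8.77, 8.94 and 7.61 in control, 7.26, 8.76, 8.74 and 7.97 in mild and 7.09, 7.89, 6.40 and 5.49 in strong RNAi. Its log2 fold change was -1.58 (SE 0.49, adjusted p = 0.0517), and -1.97 (adjusted p = 0.01264) without strong array III, whose value lay within the control range. Changes of -1.10 in *clec-51*, -1.11 in *clec-170*, -1.13 in *clec-206* and -1.21 in *clec-86* were also not called, with adjusted p between 0.06153 and 0.1705.

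Mild *nuo-5* RNAi gave no call in this family. No member was higher and none was lower against control by limma, where 0.0136% of all probe sets were higher and 0.00341% lower, and *nuo-5* was itself among the few. At an unadjusted p under 0.05, 4 members were higher and 5 lower, of 247. With arrays of the same number blocked together over all 3 groups 8 were higher and 7 lower, and no probe set of any gene passed the adjustment. Where nothing changes, a share of 0.05 of genes passes the unadjusted threshold. These counts are therefore not read as a response of the family. The other values of this comparison are from the fit without the block. All mild arrays lay above all control arrays for 2 members (0.81%, against 1.38% of all probe sets) and below them for 4 (1.62%, against 1.08%). The median log2 fold change was -0.04. The members with the smallest unadjusted p were *clec-265* (0.83, 95% interval 0.39 to 1.28), *clec-10* (0.74, 0.24 to 1.23), *clec-216* (-0.46), *clec-96* (-0.41) and *clec-204* (0.52), with values above or below control on 4 of 4 mild arrays for all but *clec-204*. None of these passed the adjustment. For 214 of 247 members the 95% interval of the mild change lay within 1 on the log2 scale in either direction, and for the other 33 a change of that size was not excluded by the interval. These intervals are of array values. The mild mean was below 3.01 in 139 members, and at such levels a narrow interval does not limit the change of the transcript. The largest mild change was that of *clec-4*, at 1.09 (95% interval 0.20 to 1.98).

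Strong and mild RNAi, which share no arrays, differed in a similar set of members. Against mild RNAi, 22 members were higher in strong RNAi (8.91%, against 5.82% of all probe sets) and 3 were lower (1.21%, against 4.34%). All strong arrays lay above all mild arrays for 20 members (8.1%, against 6.98%) and below them for 8 (3.24%, against 7.15%). Of the 22 members higher than in control, 21 were also called higher than in mild RNAi. Both comparisons use the strong arrays, and their counts are therefore not independent. The exception was *clec-10*, for which the difference between strong and mild RNAi was 0.72 (adjusted p = 0.06667), and the dim gene *clec-240* was called against mild RNAi only (0.42, adjusted p = 0.04932). Among the 22, the mild mean lay between control and strong in 13 and below control in the others, with a median change of 0.17 in mild and 1.71 in strong RNAi. Here both changes share the control arrays.

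*clec-17* and *clec-42* show this contrast most plainly, with differences of 3.15 (adjusted p = 4.005e-05) and 3.55 (adjusted p = 0.0002535) between strong and mild RNAi and mild changes of 0.00 and -0.30 against control. *clec-265* differed by 1.57 between strong and mild RNAi (adjusted p = 0.001383) and *clec-4* by 1.45 (adjusted p = 0.04177). The 3 members lower in strong than in mild RNAi were *clec-218* (-1.06, adjusted p = 0.03731), *clec-238* (-0.94, adjusted p = 0.04616) and *clec-204* (-0.81, adjusted p = 0.01404). *clec-204* was at 4.58, 4.02, 3.96 and 3.99 in control, 4.84, 4.45, 4.66 and 4.65 in mild and 4.10, 3.98, 3.85 and 3.43 in strong RNAi. In these genes the mild means were above and the strong means below the control mean, and neither was called against control.

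For some members strong array III differed from the other strong arrays. For *clec-87* the values were 4.41, 4.38, 4.95 and 4.25 in control and 4.10, 3.89, 5.00 and 4.44 in mild RNAi, and 8.09, 4.79, 7.95 and 8.22 in strong RNAi. Strong array III was thus within the control range. The rise over all 4 strong arrays was 2.77 (SE 0.61, adjusted p = 0.0111), and without strong array III it was 3.59 (SE 0.25, adjusted p = 7.444e-06). *clec-223* was between 2.46 and 2.97 on all control and mild arrays and at 4.68, 2.66, 4.19 and 3.81 on the strong arrays (1.06, SE 0.32, adjusted p = 0.0458, and 1.45 with an adjusted p of 0.0005023 without strong array III). *clec-88* was between 2.74 and 3.25 on all control and mild arrays and at 4.88, 2.50, 5.08 and 5.49 on the strong arrays. It was not called over all 4 strong arrays (1.52, SE 0.48, adjusted p = 0.05656) and was called without array III (2.18, SE 0.17, adjusted p = 1.632e-05). These genes are shown here because strong array III differed from the other strong arrays. Leaving that array out then narrows their spread by selection, and the smaller p values are not separate support for the rises.

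In all, 7 members (2.83%) were above every control and mild array on each strong array other than III but within or below the control range on strong array III, against 2.38% of all probe sets. They were *clec-87*, *clec-88*, *clec-223*, *clec-264*, *clec-91*, *clec-9* and *clec-221*. For 17 members (6.88%, against 5.6% of all probe sets) all 4 strong arrays lay above all control and mild arrays, and 15 of these were among the 22 called higher, including *clec-45*, *clec-42*, *clec-17*, *clec-265* and *clec-67*. On strong array III, *clec-42*, *clec-17* and *clec-64* had the highest or second highest value of the group. The oocyte, eggshell and adult markers were likewise higher on the same 3 strong arrays and not on III. The adult cuticle collagen gene *col-119* was at 9.66, 3.14, 9.13 and 8.09 in strong RNAi, the vitellogenin gene *vit-2* at 8.73, 3.89, 9.88 and 8.30, and the eggshell gene *perm-4* at 7.09, 4.58, 7.19 and 6.94. On strong array III these 3 genes were lower than on the other strong arrays but still above their control means. The part of this difference between larvae in the lectin values was not tested. Without strong array III, 27 members were higher and 7 lower than in control. *clec-9*, *clec-44*, *clec-88*, *clec-91*, *clec-221* and *clec-222* were added to the higher set and *clec-180* to the lower set, and *clec-47* was lost.

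**Figure D5:**
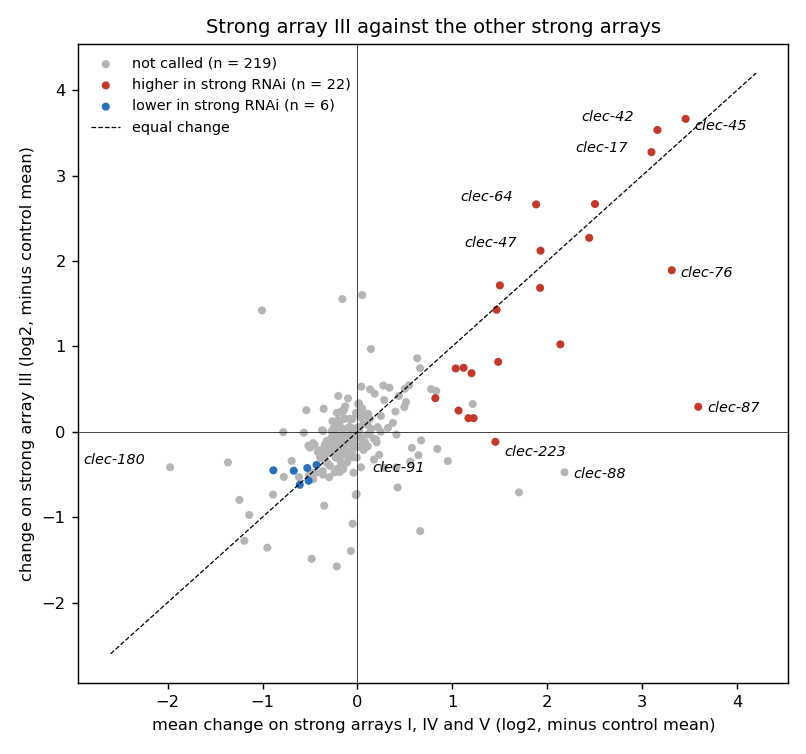
For each of the 247 C-type lectin genes, the mean change on strong arrays I, IV and V (horizontal axis) and the change on strong array III (vertical axis), both as log2 value minus the control mean. *clec-45*, *clec-42* and *clec-17* lie near the line of equal change, while *clec-87*, *clec-88* and *clec-223* lie near 0 or below on strong array III.

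Other gene groups of sugar binding and defence were listed to place the lectins beside them. Galectins, the other large family of sugar-binding proteins in the nematode, had 6 of 12 members higher and none lower between strong RNAi and control, with a median change of 0.49. The largest rises were those of *lec-11* (1.56, and 2.05 without strong array III), *lec-7* (1.29) and *lec-8* (1.06). Of 16 lysozyme genes, 3 were higher, *lys-7* (2.75), *lys-3* (2.16, and 2.81 without strong array III) and *ilys-4* (1.02), and 2 were lower, *ilys-5* (-2.89) and *lys-4* (-1.70), with a median of -0.25. Saposin-like genes, some of whose products permeabilise bacterial membranes, had 4 of 28 members higher and 4 lower, with a median of 0.11. Of 6 defensin-like antibacterial factor genes, 3 were higher, *abf-6* (1.3), *abf-5* (1.13) and *abf-1* (0.73), with a median of 0.59. Of 22 caenacin and neuropeptide-like antimicrobial peptide genes, which are mostly epidermal, none was higher and 1, *nlp-24*, was lower (-0.77), and of 6 thaumatin-like genes none was called in either direction. Without strong array III each list's count in either direction moved by at most 1. These counts are to be read beside the 8.04% higher and 5.62% lower of all probe sets.

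Genes of immune signalling and its regulators were listed as well. Of 20, 12 were higher in strong RNAi and none was lower, with a median change of 0.67. Over all probe sets 8.04% were higher and 5.62% lower, and this list too was chosen with earlier results of these data known. The largest rises were those of the STAT factor gene *sta-2* (1.59, SE 0.27, adjusted p = 0.002786), the intestinal GATA factor gene *elt-2* (1.57, SE 0.25, adjusted p = 0.002153) and the MAP kinase phosphatase gene *vhp-1* (1.5, SE 0.21, adjusted p = 0.0009849). The p38 MAP kinase gene *pmk-1* changed by 0.42 (SE 0.13, adjusted p = 0.05443) and was not called. Between mild RNAi and control no gene of these lists was called.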

How the data were processed

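Whole larvae were profiled on 12 Gene ST arrays of Affymetrix, with 4 arrays per group. The methods and the labels name different versions of this array. The log2 values were deposited by the authors after RMA, which subtracts background, gives all arrays the same distribution and summarises each probe set as a single value. Values of 29317 probe sets were complete, with 0 missing, and 0 columns were left unmapped. A further replicate, which the authors excluded, was not analysed here. Symbols came from the platform annotation and the WBcel235 gene table, used for names and neighbours only.

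Groups were compared in R 4.3.3 with limma 3.58.1 (lmFit and eBayes, 1 fit of 3 group means over 12 arrays, prior degrees of freedom 3.51 beside 9 residual ones). Adjusted p values are those of limma after Benjamini-Hochberg adjustment across the 29317 probe sets, and the threshold was 0.05. The number of arrays limits the precision, and the median half-width of a 95% interval over members was 0.38. Figures were drawn with matplotlib 3.10.9.

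The members and the gene lists were chosen with earlier results of these data known. Genes named by rule were the 12 largest rises and falls between strong RNAi and control, the 5 smallest p in mild RNAi, the 5 largest changes each way between strong and mild RNAi, the 10 highest control means, members with known roles, neighbours of the first, and up to 3 genes per list. Other members, such as *clec-146*, *clec-223*, *clec-264*, *clec-88* and *clec-51*, were named after their values were seen. The alternatives added the replicate number to the fit, used only the arrays of the compared groups, repeated the quantile step, centred arrays on their medians, dropped dim probe sets (those not above 3.01 on at least 4 arrays), kept only probe sets with 1 symbol, used an intensity trend with robust estimation, weighted arrays, applied stricter thresholds, averaged the probe sets of a gene, and left out single arrays. Mild and control arrays of 1 number deviated together from their group means (r of 0.20 to 0.34) and were therefore regarded as pairs. The main fit does not use these pairs, and the fit with the replicate number blocks the strong arrays as well. For strong arrays the correlations with control were 6.78e-05 to 0.31 and with mild 0.04 to 0.23, and those numbers were not taken to pair them.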

Additional observations from a re-analysis of the deposited data

Results flagged for a closer look

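Single arrays far from the other 3 of their group were looked for in 237 groups of 4 arrays over 79 lectin genes, and 9 were found, fewer than the 1 in 20 that chance gives. On strong array III, *clec-87* was at 4.79 where the others were at 7.95 to 8.22, and *clec-63* at 11.42 where the others were at 11.82 to 11.89. On strong array V, *clec-265* was at 11.53 (others 11.12 to 11.17) and the dim *clec-137* at 2.41 (others 2.13 to 2.17). In control, *clec-10* was at 5.94 on array IV (others 7.0 to 7.19), *clec-42* at 5.99 on array III (others 4.52 to 4.72), *clec-99* at 2.46 on array V (others 2.67 to 2.70) and *clec-204* at 4.58 on array I (others 3.96 to 4.02). In mild RNAi, *clec-90* was at 7.23 on array V (others 7.84 to 7.87).

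For 3 members every mild array lay on one side of the control mean and every strong array on the other, and the difference between mild and strong RNAi passed the threshold. *clec-72* changed by -0.33 in mild and 0.96 in strong RNAi, a difference of 1.29 (limma, adjusted p = 0.01049). *clec-204* changed by 0.52 and -0.30, a difference of -0.81 (adjusted p = 0.01404), and *clec-238* by 0.36 and -0.59, a difference of -0.94 (adjusted p = 0.04616).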

How the results depend on the processing

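Of the 28 members called between strong RNAi and control, 18 kept their call in every alternative run on single genes that tested them. The other 10 lost it in 4 or more, up to 12. Those that lost it were *clec-47*, *clec-223*, *clec-72*, *clec-167*, *clec-264*, *clec-63*, *clec-208*, *clec-216*, *clec-114* and *clec-29*. Of the 25 called between strong and mild RNAi, 11 kept it in all and 13 lost it in 4 or more. No call changed direction. Members called higher than in control numbered 22, and 10 at an adjusted p under 0.01. Those called lower, 6, numbered 2 in a fit of only the 8 arrays compared, 12 with array weights, and 0 where a log2 fold change of at least 1 either way was also required or at an adjusted p under 0.01. Those higher than in mild RNAi, 22, numbered 14 in the fit of 8 arrays and 7 at an adjusted p under 0.01. Those lower than in mild RNAi, 3, numbered 1 in the fit of 8 arrays, 1 at a fold change of at least 1 and 0 at an adjusted p under 0.01. The smaller fits hold fewer arrays, and the cause of the other shifts was not tested. With the replicate block, those lower than in mild RNAi numbered 6, and the counts against control were 27 higher and 9 lower, with 22 and 5 of the original calls kept. Leaving out 1 array gave 16 to 27 higher and 2 to 7 lower than in control, with 2 without strong array IV and 3 without control array III, control array V or strong array V. Against mild RNAi it gave 10 to 24 higher (10 without mild array V, 11 without strong array IV, 13 without mild array III, and 14 without strong array I or V) and 1 to 4 lower (1 without mild array I, mild array V or strong array V). Mild RNAi gave 0 calls of members in each of the 23 alternatives. In most of them no probe set of any gene was called, and in the rest at most 4 were higher and 1 lower. The lack of member calls is therefore not particular to this family. The filter on dim probe sets kept 122 members and 18661 probe sets, with 21 higher and 4 lower, of which 20 and 2 were original calls. It dropped *clec-29*, *clec-96*, *clec-138*, *clec-208*, *clec-167* and *clec-223*, so that these called members were not tested under it. Of 56 uncalled values followed, 8 were called in some alternative, among them that of *clec-180* in 8. A count of promoter motifs was planned and not run, for want of promoter sequences. Quantile normalization again moved the calls over all probe sets from 8.04% higher and 5.62% lower to 7.12% and 6.76%, and array medians as centres to 7.14% and 6.34%.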
